A study of Homo sapiens
Mus musculus with 24 samples.

Results

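ATP-binding cassette (ABC) genes are described here in breast tumors grown in mice, in the tumor cells (human transcripts) and in the host tissue (murine transcripts) apart. The genes were chosen by symbol: every gene whose symbol begins with ABC, a subfamily letter from A to G and a digit. This gave 32 of the 18880 genes in the human table and 35 of the 16667 genes in the murine table, 67 of 35547 in all. The rule uses no measured value.

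ABC proteins bind and split ATP, and most of them use the energy to move a substrate across a membrane. P-glycoprotein (ABCB1), the multidrug resistance proteins of the ABCC subfamily and ABCG2 pump drugs and their conjugates out of cells, and doxorubicin is a classic substrate of P-glycoprotein and ABCC1. Members of the ABCA and ABCG subfamilies move cholesterol and phospholipids, most ABCD proteins carry fatty acids into peroxisomes, and ABCE1 and the ABCF proteins transport nothing and act in translation.

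The tumor cells were MDA-MB-231, a human triple-negative breast cancer line, injected under the skin at the base of the neck of female B6/Rag1KO mice, which lack mature T and B cells, at 14 weeks of age per the labels. CTRL (n = 4) received a high-fat diet and weekly saline. Chemo (n = 5) received the high-fat diet with doxorubicin at 2 mg/kg and cyclophosphamide at 100 mg/kg, injected weekly into the peritoneum for 4 weeks. MC (n = 5) received the high-fat diet with moringa concentrate, a moringa seed extract, at 0.6% of the diet, MC + Chemo (n = 6) received both treatments, and Lean (n = 4) received a lean diet with no intervention. All tumors came from 1 cell line, and 1 library was made per mouse, so the spread between libraries is the spread between mice. A library is called by its group and mouse number, and values listed for a group follow the order CTRL 17, 31, 44 and 70, then Chemo 19, 30, 33, 34 and 67, then MC 6, 41, 42, 48 and 59, then Lean 3, 21, 24 and 54. For the 6 MC + Chemo tumors the lowest, the highest and the median are given.

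Human counts per library ran from 7796231 to 17621273 and murine counts from 3664056 to 9892470. The human share of all counts was 47.8% in MC 41 and at most 74.0% elsewhere. The 10 genes listed for the cell line were all in the human table. The mean normalised count of VIM, an intermediate filament of mesenchymal cells, was 7226 to 35613 in the 5 groups, and that of KRT19, a keratin, was 14287 to 26070. By group mean, VIM, CAV1, EGFR and AXL of that list were highest in CTRL and lowest in Chemo. KRT8, KRT18, KRT19 and ANXA1 were lowest in CTRL, and for CD44 and SPARC CTRL was neither highest nor lowest. The mean of ESR1, the estrogen receptor that triple-negative cells lack, was 26.9 to 36.3. ESR1 was 1 of 5 listed luminal and receptor genes. Of the others, ERBB2 and GATA3 were higher, with group means of 356 to 527 and 288 to 434. FOXA1 was 3.81 to 12.3, and PGR has no row under that symbol. Some libraries held muscle or fat transcripts. The summed normalised count of 10 skeletal muscle markers was 81.6 to 596 in 18 libraries, and 2023 to 57405 in Chemo 30, MC 41, MC 48 and MC + Chemo 5, 43 and 47. The sum of 10 adipocyte markers was above 20000 in Lean 21, MC 6, MC 41 and MC + Chemo 5 and 52. By group the muscle sum spanned (lowest to highest tumor) CTRL 112 to 145, Chemo 122 to 2203, MC 81.6 to 35615, MC + Chemo 99.5 to 57405 and Lean 141 to 596, and the adipocyte sum CTRL 564 to 8632, Chemo 1146 to 8858, MC 2109.8 to 88609, MC + Chemo 1313 to 111907 and Lean 1129 to 21544. All 10 genes of both lists are in the murine table, and at most 2 of each were at 0 in any library. An extra RNA cleanup was applied to 3 libraries, Lean 3, MC 41 and MC 42.

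Of the human members, 26 of 32 passed the filter on low counts, and of the murine members 34 of 35. The 6 human members that did not pass (ABCC2, ABCA8, ABCA10, ABCA13, ABCB4 and ABCB6) had too few counts to test, as had murine Abcg4. ABCB1, the gene of P-glycoprotein, has no row in the human table under that symbol. The tables hold no gene with fewer than 72 counts over the 24 libraries, and human ABCB1 was not analysed here.

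No ABC gene of the tumor cells passed the test in any comparison. Of the 26 tested, 0 had an edgeR adjusted p below 0.05 in Chemo, in MC or in MC + Chemo against CTRL. Over all 16434 human genes the same test called 0%, 0% and 2.09%. Before adjustment, p was below 0.05 for 4, 1 and 3 ABC genes, or 15.4%, 3.85% and 11.5% of them, where all human genes gave 18.2%, 10.7% and 22.7%. In each comparison the share of ABC genes was below the share of all genes. With DESeq2 there were 0, 0 and 1 (all genes 3.45%, 0.0608% and 7.41%). Leaving out CTRL 31 gave edgeR calls for ABCA7, ABCE1 and ABCB8 in Chemo (3 genes) and for ABCA7 and ABCE1 in MC + Chemo (2 genes), where it gave 1466 and 1501 calls over all human genes. The 3 comparisons share the 4 CTRL tumors.

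The other comparisons of the tumor cells gave 0 ABC genes by edgeR as well. MC + Chemo against Chemo had 3 ABC genes at an unadjusted p below 0.05 (all genes 10.4%), and MC + Chemo against MC had 2 (7.95%). Chemotherapy averaged over both diets had 5 (17.6%), MC averaged over chemotherapy had 3 (11.4%), and their interaction had 3 (9.74%). Lean against CTRL had 2 (7.08%). DESeq2 called 0 ABC genes in these 6 comparisons, and the share of all human genes it called was 0.103%, 0.0487%, 2.7%, 0.602%, 0.0122% and 0.0121%. The share called by edgeR was 0% in all 6.

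**Figure D1:**
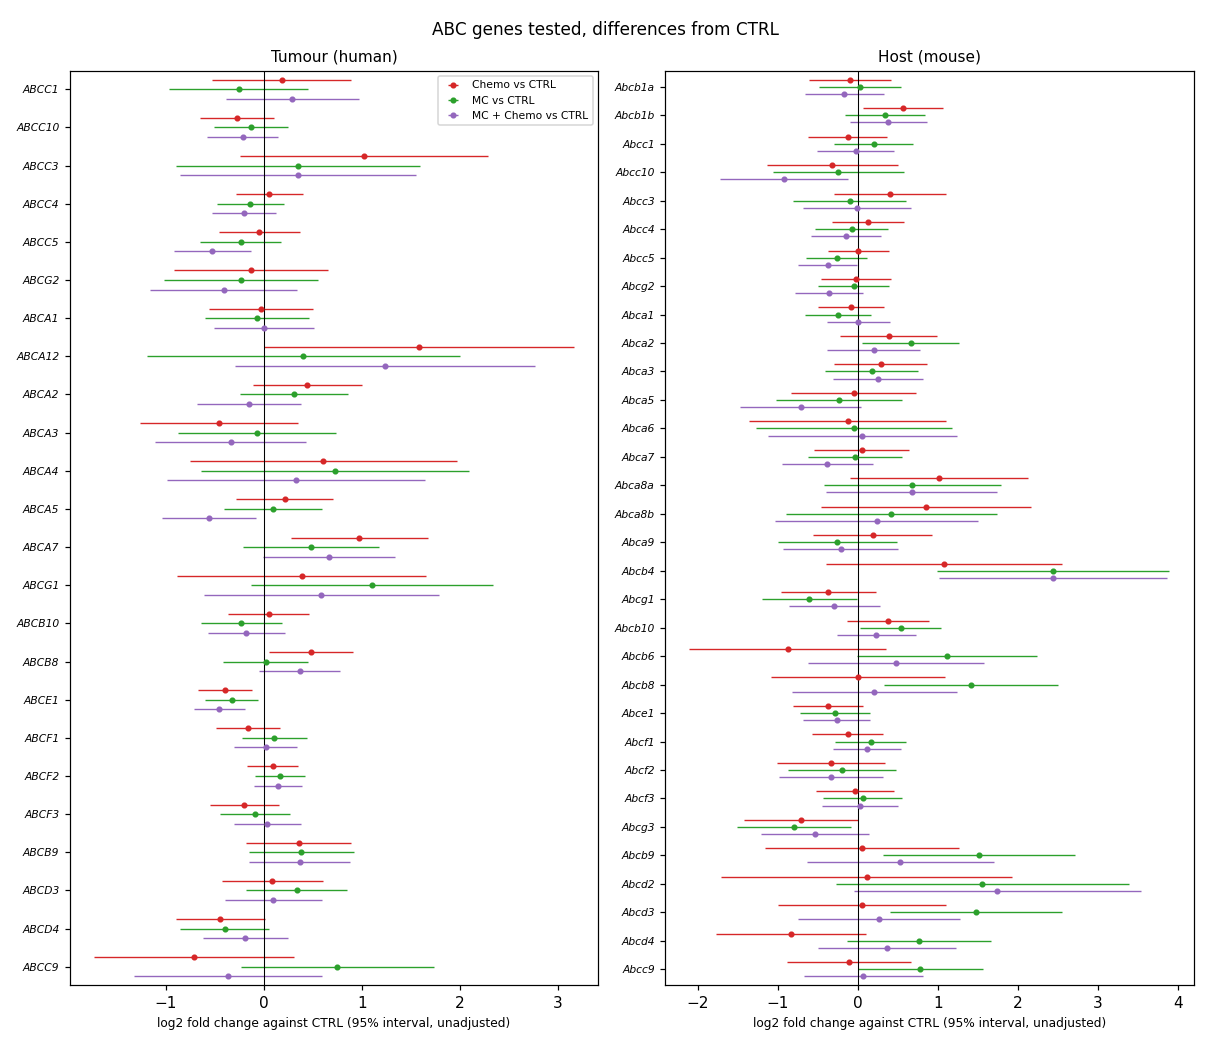
Log2 fold changes against CTRL of 24 of the 26 human (left) and 32 of the 34 murine (right) ABC genes tested, with 95% intervals of the edgeR fit before adjustment, for Chemo (red), MC (green) and MC + Chemo (purple). Intervals that miss 0 are few in both genomes, and the widest belong to genes with low counts or with values that differ between libraries, such as Abcb4 at 2.44 for MC.

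The tumor cells had rows for 7 of the 12 listed human drug efflux genes, and 6 of these could be tested. Their median log2 fold change was 0.01 in Chemo, -0.18 in MC and -0.21 in MC + Chemo, where the median over all human genes tested was -0.02 in each. Of the 6, 3 were higher than CTRL in Chemo, 1 in MC and 2 in MC + Chemo, where 47.7%, 46.9% and 47.5% of all human genes were.

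ABCC3, which exports glucuronide and other organic anion conjugates, varied most among them. Its normalised counts in CTRL were 31.9, 1162, 129 and 1047. Chemo tumors had 846, 1415, 1836, 1292 and 675, and MC tumors had 907, 533, 608, 978 and 766. In MC + Chemo it ran from 464 to 1052 (median 730.5), and in Lean it was 687, 1336, 347 and 664. CTRL 17 and CTRL 44 stood far below every other tumor, while CTRL 31 and CTRL 70 lay within the Chemo values. The Chemo difference was not called (log2 fold change 1.02, SE 0.61, 95% interval -0.24 to 2.28, edgeR adjusted p = 0.374), and leaving out CTRL 17 or CTRL 31 moved the log2 fold change to 0.62 and 1.57.

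ABCC5, an exporter of cyclic nucleotides and nucleotide analogues, was the efflux gene with the lowest unadjusted p. CTRL counts were 307, 324, 312 and 293, in a narrow range. The MC + Chemo counts ran from 138 to 265 (median 243), all of them below all CTRL tumors. This was the only tested human ABC gene whose MC + Chemo and CTRL libraries did not overlap, where 5.26% of all human genes did not (log2 fold change -0.52, SE 0.19, 95% interval -0.92 to -0.13, edgeR adjusted p = 0.111, two-sided exact permutation p = 0.0286). Chemo tumors had 254, 340.4, 335, 379 and 203 and MC tumors 257, 245, 252, 331 and 232, so 4 of the 5 MC tumors lay below CTRL and 1 above it. Against Chemo the MC + Chemo difference was of like size (log2 fold change -0.48, SE 0.18, edgeR adjusted p = 0.369), as was the difference for MC averaged over chemotherapy (log2 fold change -0.36, SE 0.13, edgeR adjusted p = 0.318).

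The other 4 tested efflux genes had no unadjusted p below 0.05 in any comparison. ABCC1, the exporter of glutathione conjugates and doxorubicin, had 63.8, 49.8, 69.9 and 80.7 in CTRL and 47.3, 48.1, 69, 89.5 and 124 in Chemo (log2 fold change 0.18, SE 0.34, 95% interval -0.52 to 0.89, edgeR adjusted p = 0.815). In MC it was 67.7, 54.1, 94.7, 32 and 27.3 and in MC + Chemo 57.1 to 114 (median 73.8). Its groups overlapped throughout. ABCG2, the exporter of mitoxantrone and related drugs, had 30.1, 54.1, 43.2 and 44.9 in CTRL, 37.6, 32.5, 79.1, 29.1 and 20.7 in Chemo and 18.3 to 50.9 (median 30.4) in MC + Chemo (log2 fold change -0.41, 95% interval -1.16 to 0.34, edgeR adjusted p = 0.522). The MC tumors had 17.6, 48.2, 29.1, 44.3 and 45. All 4 groups overlapped for ABCG2 too.

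ABCC4, which exports cyclic nucleotides and prostaglandins, was steadier. It had 262, 326, 399 and 276 in CTRL and 262, 345, 429.7, 325 and 298 in Chemo (log2 fold change 0.06, 95% interval -0.29 to 0.40, edgeR adjusted p = 0.887), and ran from 216 to 351 (median 269.6) in MC + Chemo (log2 fold change -0.20, 95% interval -0.53 to 0.13, edgeR adjusted p = 0.471). Its groups overlapped as well. ABCC10, an exporter of taxanes, had 126, 106, 168 and 142 in CTRL and 102, 113, 147, 95.1 and 109 in Chemo (log2 fold change -0.27, 95% interval -0.65 to 0.10, edgeR adjusted p = 0.429). ABCC2, the anion exporter of bile canaliculi, ranged from 0 in CTRL 44 to 10.8 in CTRL 31 and was not tested.

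**Figure D2:**
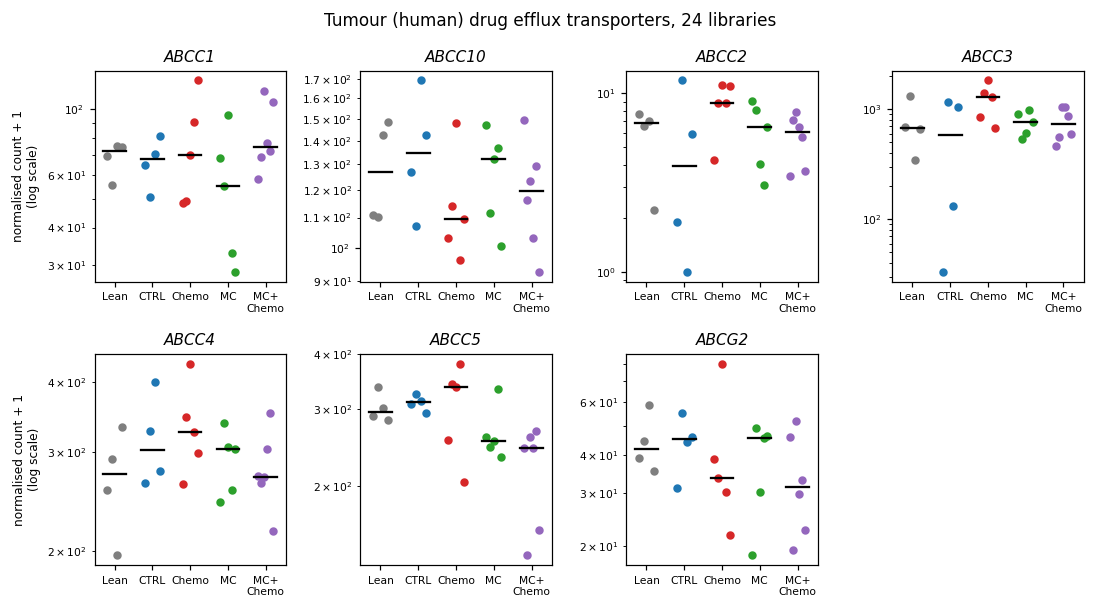
Normalised counts plus 1 (log scale) of the 7 human drug efflux genes in the 24 tumors by group; each point is 1 tumor and the bar is the group median. The plot shows CTRL 17 and CTRL 44 far below the rest for ABCC3, and the 6 MC + Chemo values of ABCC5 all below CTRL.

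Lipid transporters of the tumor cells included 12 genes in the table, of which 8 could be tested. Their median log2 fold change was 0.42 in Chemo, 0.36 in MC and 0.17 in MC + Chemo. Higher than CTRL were 6, 6 and 5 of the 8, against 47.7%, 46.9% and 47.5% of all human genes. At an unadjusted p below 0.05, 2 were higher in Chemo (7.84% of all genes), 0 differed in MC and 1 was lower in MC + Chemo (13.5% of all genes).

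ABCA7, which moves phospholipids at the cell surface and takes part in phagocytosis, had 38.3, 173, 41.4 and 131 in CTRL and 151, 253, 206, 197 and 144 in Chemo. Here again CTRL 17 and CTRL 44 were the low pair, and the 5 Chemo tumors overlapped only with CTRL 31. MC tumors had 103, 148, 117, 166 and 141, and the MC + Chemo tumors ran from 121 to 194 (median 152). Lean tumors had 114, 194, 50.3 and 104, the lowest being Lean 24. The Chemo difference was not called (log2 fold change 0.97, SE 0.33, 95% interval 0.27 to 1.67, edgeR adjusted p = 0.147, two-sided exact permutation p = 0.0397), and without CTRL 31 it was (log2 fold change 1.41, edgeR adjusted p = 0.0183).

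ABCA12 and ABCA4 shared the low values of these tumors; both were singled out after their values were seen. ABCA12, which loads glucosylceramide into the lamellar granules of keratinocytes, had 0, 36.8, 0 and 18.9 in CTRL, with 0 counts in CTRL 17 and CTRL 44, and 35.5, 79.5, 23.7, 42.5 and 27.9 in Chemo (log2 fold change 1.59, SE 0.76, edgeR adjusted p = 0.273). Lean 24 had 1.01. ABCA4, the retinoid flippase of photoreceptors, had 0.911, 55.2, 0.863 and 49.8 in CTRL and 48.4, 54.9, 37.3, 33.6 and 31.4 in Chemo (log2 fold change 0.61, SE 0.66, edgeR adjusted p = 0.655). Over all members, 7 of the 32 human ABC genes were at their lowest of the 24 libraries in CTRL 17, or 21.9%, against 15.3% of all human genes. In CTRL 44 it was 3 (9.38%), against 11.4% of all human genes. CTRL 17 and CTRL 44 also each held the highest value for 4 members (12.5%), against 11.1% and 14.3% of all human genes.

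**Figure D3:**
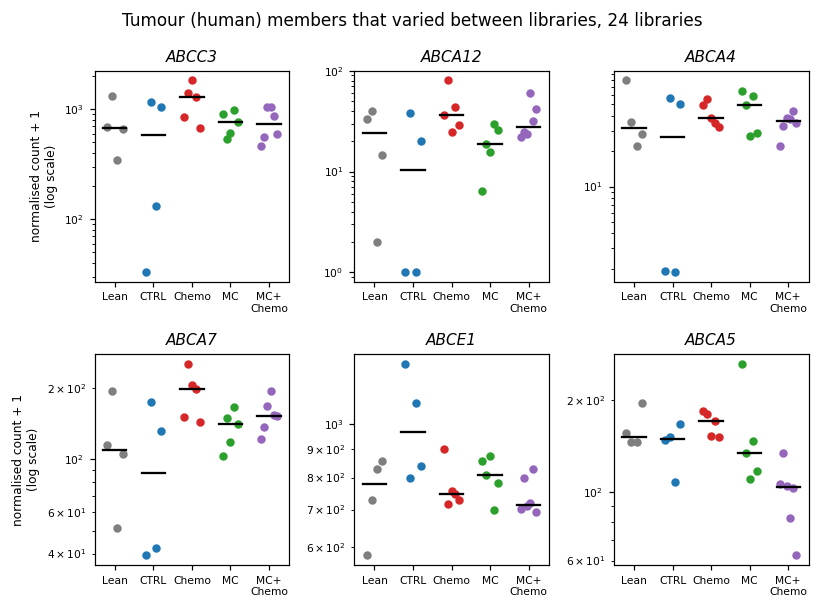
Normalised counts plus 1 (log scale) of 6 human ABC genes in the 24 tumors by group, with each tumor as a point and the group median as a bar. The CTRL group splits for ABCC3, ABCA12, ABCA4 and ABCA7, where CTRL 17 and CTRL 44 are the 2 low points, and for ABCE1, where the same 2 tumors are the high points at 1284 and 1089.

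ABCA5, a transporter of late endosomes and lysosomes, showed the difference between MC + Chemo and Chemo with the lowest p. Chemo tumors had 183, 179, 152, 169 and 151, and MC + Chemo tumors ran from 61.3 to 133 (median 103), without overlap (log2 fold change -0.77, SE 0.22, 95% interval -1.22 to -0.32, edgeR adjusted p = 0.308, two-sided exact permutation p = 0.00433; 1.87% of all human genes did not overlap). CTRL had 147, 150.5, 107 and 166 and MC had 261, 133, 109, 145 and 116, with MC 6 far above the other MC tumors. Against CTRL, MC + Chemo was lower by a similar step (log2 fold change -0.56, SE 0.23, edgeR adjusted p = 0.155). The interaction of MC and chemotherapy was not called (log2 value -0.86, SE 0.32, edgeR adjusted p = 0.511).

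ABCA1, which loads cholesterol onto apolipoprotein A-I, overlapped across the groups. It had 533, 547, 597 and 782 in CTRL, 557, 415, 571, 916 and 582 in Chemo and 471, 943, 518, 602 and 416 in MC. The log2 fold change was -0.03 in Chemo (95% interval -0.56 to 0.50, edgeR adjusted p = 0.966) and 0.00 in MC + Chemo (95% interval -0.51 to 0.51, edgeR adjusted p = 0.996). ABCA2, an endolysosomal lipid transporter, had 59.1, 86.2, 144, 92.9 and 95.7 in Chemo and ran from 47.3 to 75.4 (median 65.4) in MC + Chemo (log2 fold change -0.60, SE 0.24, edgeR adjusted p = 0.397). Chemo 33 was the highest of them, and without it the log2 fold change was -0.39. ABCA3, of surfactant lamellar bodies, was highest in CTRL 17 (56.5) and CTRL 44 (45.8) and was lower in the other 2 CTRL tumors (17.3 and 9.12). ABCG1, which passes cholesterol to high-density lipoprotein, had at most 25.9 counts, in MC 41. It had 5.47, 4.33, 3.45 and 10.5 in CTRL and 14.3, 11.2, 17.1 and 12.3 in Lean, without overlap (log2 fold change 1.16, SE 0.58, edgeR adjusted p = 0.712, two-sided exact permutation p = 0.0286).

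Among the genes with other roles, ABCE1, which splits ribosomes after translation ends, came closest to a call. It had 1284, 797, 1089 and 839 in CTRL, with CTRL 17 and CTRL 44 the 2 highest of all 24 tumors. Chemo tumors had 901, 714, 756, 747 and 729, MC tumors 857, 807, 874, 698 and 779, and the MC + Chemo tumors ran from 692 to 828 (median 714). The groups overlapped in each comparison with CTRL. The MC + Chemo difference was called by DESeq2 and not by edgeR (log2 fold change -0.45, SE 0.13, 95% interval -0.71 to -0.19, edgeR adjusted p = 0.0583, adjusted p = 0.0252 with DESeq2). In Chemo it was called by neither (log2 fold change -0.39, SE 0.13, edgeR adjusted p = 0.137, adjusted p = 0.0939 with DESeq2). Without CTRL 17 these log2 fold changes were -0.31 and -0.25. Lean tumors had 577, 726, 828 and 856 (log2 fold change -0.43, SE 0.15, edgeR adjusted p = 0.685).

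The translation factors ABCF1, ABCF2 and ABCF3 stayed close to CTRL, with log2 fold changes from -0.20 to 0.17 over the 3 treatments. ABCF2 was higher in all 4 Lean tumors (648, 535, 654 and 536) than in all CTRL tumors (430.2, 494, 478 and 483), which was not called (log2 fold change 0.33, SE 0.13, edgeR adjusted p = 0.685, two-sided exact permutation p = 0.0286). In Lean against CTRL 2 tested human ABC genes did not overlap, ABCF2 and ABCG1, where 2.21% of all human genes did not. Of the mitochondrial genes, ABCB8, of the inner membrane, had 43.7, 113, 71.6 and 85.6 in CTRL and 97.8, 137, 107, 109 and 101 in Chemo, with CTRL 17 and CTRL 44 low (log2 fold change 0.48, SE 0.21, edgeR adjusted p = 0.224). The peroxisomal ABCD3 was at most 0.34 above CTRL, and ABCD4, a lysosomal vitamin B12 transporter, was lower in Chemo without a call (log2 fold change -0.44, 95% interval -0.89 to 0.01, edgeR adjusted p = 0.282). ABCC9, a regulatory subunit of potassium channels, was lower in MC + Chemo than in MC (log2 fold change -1.12, SE 0.43, edgeR adjusted p = 0.597), where MC 41 had 56.5 counts and the next MC tumor 22.7, and without MC 41 the log2 fold change was -0.69.

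Genes that work beside the transporters were counted from lists. TAP1 and TAP2, the ABC proteins that carry peptides to MHC class I and bear other symbols, gave the only edgeR call among these lists in Chemo, MC or MC + Chemo: TAP1 rose in MC + Chemo over its CTRL level (log2 fold change 1.10, SE 0.22, edgeR adjusted p = 0.0305, adjusted p = 0.000485 with DESeq2). For TAP2 the edgeR adjusted p was 0.0862 and the DESeq2 adjusted p 0.0433 (log2 fold change 0.52, SE 0.17). In Chemo, DESeq2 called TAP1 as well (log2 fold change 0.79, SE 0.22, edgeR adjusted p = 0.0976, adjusted p = 0.0292 with DESeq2). Of 16 tested glutathione conjugation genes, which make the substrates of the ABCC pumps, 0 passed by edgeR in MC + Chemo, 6 were higher and 2 lower at an unadjusted p below 0.05, and DESeq2 called 4 higher and 1 lower. Over all human genes the unadjusted shares were 9.19% higher and 13.5% lower, and the DESeq2 shares 3.3% and 4.1%. The lower one was GSTA4 (log2 fold change -1.21, SE 0.32, edgeR adjusted p = 0.0518), and GSTP1, a transferase that conjugates many drugs, was 0.82 higher (SE 0.23, edgeR adjusted p = 0.0583). Of 19 genes of cholesterol efflux and the LXR receptors, 10 regulators of drug efflux genes and 10 peroxisome genes, 0 passed by edgeR in Chemo, MC or MC + Chemo, and 3, 2 and 2 had an unadjusted p below 0.05 in MC + Chemo. The medians over these 3 lists were 0.14, -0.12 and 0.10 in MC + Chemo.

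The ABC genes of the host gave no call either. Of the 34 murine members tested, 0 had an edgeR adjusted p below 0.05 in Chemo, MC or MC + Chemo against CTRL, and of all 15011 murine genes 0%, 0% and 0% did. Before adjustment, p was below 0.05 for 2, 8 and 3 ABC genes (5.88%, 23.5% and 8.82%), where all murine genes gave 4.53%, 11.8% and 12.4%. The share of ABC genes was above that of all genes in Chemo and MC and below it in MC + Chemo. DESeq2 called 0, 1 and 1 (0.127%, 1.68% and 1.24% of all genes). In bulk tissue fewer cells of a type and less RNA per cell cannot be told apart.

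In the other host comparisons edgeR again called 0 ABC genes. Before adjustment, p was below 0.05 for 4 in MC + Chemo against Chemo (all genes 11%), 3 in MC + Chemo against MC (9.87%) and 0 in Lean against CTRL (3.11%). Chemotherapy averaged over diets had 1 (5.7%), MC averaged over chemotherapy had 8 (15.9%), and the interaction had 2 (6.87%). DESeq2 called 2 for MC averaged over chemotherapy (4.79% of all genes) and 0 in the other 5, where it called 0.326%, 0.0466%, 0.00665%, 0.28% and 0% of all genes. By edgeR the test called 0.0266% of all murine genes for chemotherapy averaged over diets and 0% in the other 5.

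All 8 host drug efflux genes in the table could be tested. Mice carry P-glycoprotein as 2 genes, Abcb1a and Abcb1b, whose close sequences mean that short reads could be split between them, so their values are uncertain against each other. Abcb1b had 32.6, 40.6, 30.8 and 40.8 in CTRL and 49.2, 53.5, 58.5, 59.4 and 47.5 in Chemo. All 5 Chemo tumors lay above all 4 CTRL tumors, the only tested murine ABC gene of which this was so, where 1.39% of all murine genes did not overlap. The difference was not called (log2 fold change 0.56, SE 0.24, 95% interval 0.06 to 1.06, unadjusted p = 0.0293, edgeR adjusted p = 1, two-sided exact permutation p = 0.00794), and with any 1 tumor left out the log2 fold change was 0.49 to 0.63. The summed erythroid markers, 5 of 8 listed genes being in the table, likewise did not overlap, at 694 to 2390 in CTRL and 3740 to 14743 in Chemo. On that erythroid sum MC (3159 to 11125), MC + Chemo (6044 to 21831) and Lean (4576 to 5165) also lay above all CTRL tumors. The summed neutrophil markers, 7 of 8 in the table, had medians of 1187 in CTRL and 3938 in Chemo and overlapped. The part of either in the Abcb1b values was not tested. MC tumors had 31.7, 45.3, 53.6, 49.1 and 46.6, and the MC + Chemo tumors ran from 27 to 62.5 (median 49), which overlapped with CTRL. Lean 21 was the highest of all, at 72.1.

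Abcb1a showed no such separation. CTRL had 48, 55, 84.6 and 49 and Chemo 46.8, 59.3, 44.4, 58.6 and 64.6 (log2 fold change -0.10, 95% interval -0.61 to 0.41, edgeR adjusted p = 1), and the direction turned without CTRL 44 (log2 fold change 0.11). MC tumors had 81, 64.4, 63.8, 42.2 and 46.6 and MC + Chemo tumors 31.7 to 67.9 (median 53.4). In the Lean tumors it was 77.2, 87.1, 61.3 and 55 (log2 fold change 0.27, 95% interval -0.25 to 0.78, edgeR adjusted p = 1).

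**Figure D4:**
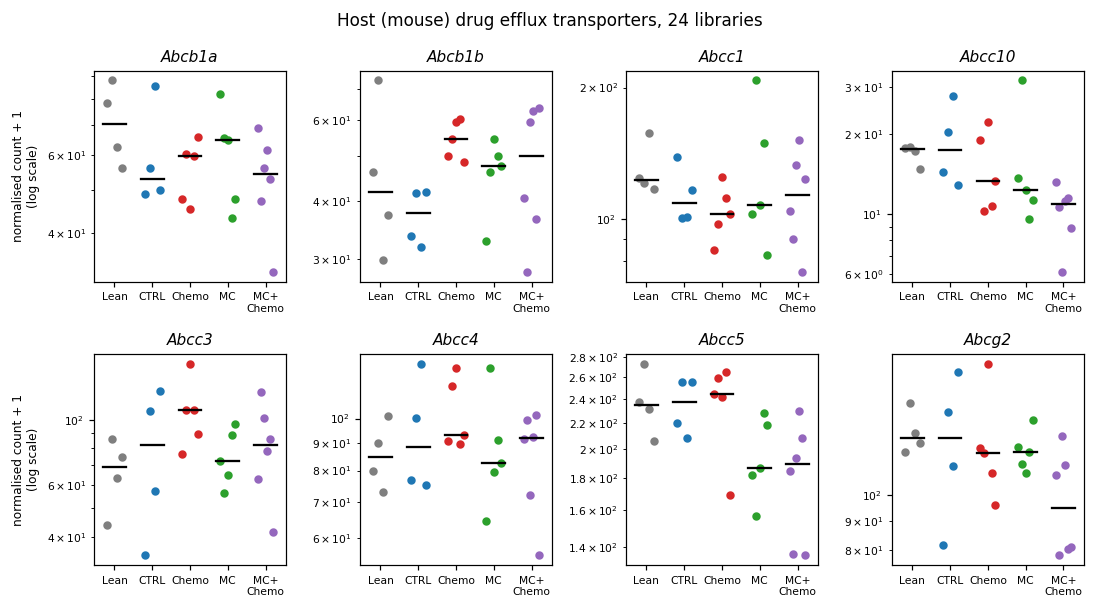
Normalised counts plus 1 (log scale) of the 8 murine drug efflux genes in the 24 tumors by group; points are tumors and bars are group medians. For Abcb1b the 5 Chemo points lie above the 4 CTRL points, and for Abcc5 the MC + Chemo points reach from 135 to 229.

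Abcc5 of the host was, like ABCC5 of the tumor cells, lower where MC was given, without a call in either genome. CTRL had 219, 255, 208 and 255, MC had 181, 156, 186, 227 and 218, and MC + Chemo ran from 135 to 229 (median 188). The groups overlapped. The log2 fold change was -0.27 in MC, -0.38 in MC + Chemo and -0.33 for MC averaged over chemotherapy (SE 0.12, edgeR adjusted p = 0.179). Chemo tumors had 244, 258, 241, 264 and 168 (95% interval -0.37 to 0.38, edgeR adjusted p = 1).

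Abcg2, which also marks vessel and stem cell membranes, had 80.7, 139, 111 and 164 in CTRL, 120.0, 117, 169, 108 and 95 in Chemo and 77.2 to 126 (median 93.8) in MC + Chemo (log2 fold change -0.36, SE 0.20, 95% interval -0.79 to 0.06, edgeR adjusted p = 0.468). Its groups overlapped, and CTRL 17, the tumor with the lowest endothelial marker sum (849.8 against 1212 in MC + Chemo 52 and 2782 to 6584 in the others), had the lowest CTRL value. MC + Chemo 52 had 80.1. MC + Chemo 25 and 50 were lower still in Abcg2 (77.2 and 79.3), with endothelial sums of 5361 and 4607. The part of vessel content in the Abcg2 values was not tested. Abcc1, Abcc3 and Abcc4 had log2 fold changes between -0.15 and 0.40 over the 3 treatments. Abcc1 was highest in MC 41 at 207, while CTRL ran from 99.4 to 137. Abcc10 was low in count. It had 13.4, 19.3, 26.9 and 11.9 in CTRL and 5.07 to 12.2 (median 9.97) in MC + Chemo, with overlap (log2 fold change -0.93, SE 0.38, edgeR adjusted p = 0.338, two-sided exact permutation p = 0.00952).

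Of the host lipid transporters, Abcb4 gave the largest difference among the murine ABC genes tested. It moves phosphatidylcholine into bile and is expressed in liver and muscle. Its counts were 2.88, 8.69, 6.41 and 5.66 in CTRL and 16.8, 8.14, 12.1, 11.4 and 14.3 in Chemo, 14.3, 89.8, 7.15, 37 and 12.9 in MC and 6.71, 6.55, 6.71 and 3.75 in Lean. In MC + Chemo they ran from 13.2 to 65.1 (median 17.7), all above all CTRL tumors, where 2.54% of all murine genes did not overlap. MC 41 (89.8), MC + Chemo 43 (65.1), MC + Chemo 5 (61.8) and MC 48 (37.0) were the 4 highest of the 24.

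The difference of Abcb4 from CTRL was called by DESeq2 and not by edgeR, in MC (log2 fold change 2.44, SE 0.70, edgeR adjusted p = 0.242, adjusted p = 0.031 with DESeq2) and in MC + Chemo (log2 fold change 2.43, SE 0.68, edgeR adjusted p = 0.211, adjusted p = 0.0265 with DESeq2, two-sided exact permutation p = 0.00476). The same held for MC averaged over chemotherapy (log2 fold change 1.90, SE 0.45, edgeR adjusted p = 0.079, adjusted p = 0.00361 with DESeq2). The 4 tumors with the highest Abcb4 were the 4 with the highest skeletal muscle marker sums (57405 in MC + Chemo 43, 35615 in MC 41, 35411 in MC + Chemo 5, 7866 in MC 48). Without the 6 libraries above 1000 on that sum, the log2 fold change was 0.93 in MC (edgeR adjusted p = 1.00) and 1.39 in MC + Chemo (edgeR adjusted p = 0.311), and for MC averaged over chemotherapy it went from 1.90 to 0.57 (edgeR adjusted p = 0.594). Without MC 41 alone it was 1.59 in MC. The limit of 1000 was chosen after the data were seen. The libraries it removed include the 4 with the highest Abcb4 and none of CTRL, so the value falls whatever the cause. The part of muscle tissue in the Abcb4 values was not tested. In Chemo the difference was not called (log2 fold change 1.08, SE 0.71, 95% interval -0.40 to 2.55, edgeR adjusted p = 1), only Chemo 30 was above 1000 on the muscle sum, and Chemo 30 had the lowest Abcb4 of the 5, 8.14.

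Abca1 had 779.7, 548, 903 and 814 in CTRL, 754, 531, 658, 818 and 822 in Chemo, 595, 885, 582, 611 and 501 in MC and 580.5, 573, 627 and 651 in Lean. The groups overlapped, and the log2 fold change in MC + Chemo was 0.00 (95% interval -0.39 to 0.40, edgeR adjusted p = 0.996). Abcg1 had 202, 175, 536 and 202 in CTRL, where CTRL 44 was over 2 times as high as the others, and 137, 179.6, 245, 168 and 167 in MC (log2 fold change -0.61, SE 0.28, edgeR adjusted p = 0.41). Abca8a, which lies in a cluster of similar genes with Abca8b and Abca9 that could share reads, had 99.9, 258, 169 and 288 in CTRL and 295, 622, 456, 627 and 70.3 in Chemo (log2 fold change 1.01, SE 0.53, 95% interval -0.10 to 2.13, edgeR adjusted p = 1), and Abca9 had 194, 190.2, 152 and 124 and 121, 247, 204, 263 and 103 (log2 fold change 0.18, 95% interval -0.56 to 0.93, edgeR adjusted p = 1). Both ranged widely within groups.

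The peroxisomal genes followed single tumors. Abcd2, which carries very long chain fatty acids and is high in fat tissue, had 25.9, 39.6, 19.2 and 79.8 in CTRL, 18, 44.2, 61.5, 74.8 and 27.6 in Chemo and 105, 421, 26.2, 40.5 and 29.8 in MC. In MC + Chemo it ran from 11.6 to 479.9 (median 99.3). MC + Chemo 52 and MC 41 were the 2 highest, and they held the 2 highest adipocyte marker sums (111907 and 88609). The MC + Chemo difference from CTRL was not called (log2 fold change 1.74, SE 0.86, edgeR adjusted p = 0.417), and the log2 fold change was 0.53 without the 5 libraries above 20000 on that sum. For MC averaged over chemotherapy it was 1.59 with all libraries and 0.01 without those 5. Those 5 include the 2 highest Abcd2 tumors and none of CTRL or Chemo, so the value falls whatever the cause. The limit was chosen after the data were seen, and the part of fat tissue was not tested.

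Abcd3, a peroxisomal carrier of branched and long chain fatty acids, was 1728 in MC 41, 621 in MC 6 and 401 in MC + Chemo 52, and 172 to 272 in the other 21 tumors. Its difference in MC was not called (log2 fold change 1.47, SE 0.52, edgeR adjusted p = 0.283), and the log2 fold change was -0.21 without the 5 adipocyte-rich libraries. Those 5 include the 3 highest Abcd3 tumors, so this loss was set in advance, and the part of fat tissue was not tested. Mitochondrial Abcb8 was likewise highest in MC 41 (203), MC 6 (93.7) and MC + Chemo 52 (73.1), where CTRL had 25, 33.8, 34.6 and 30.2 (log2 fold change 1.41, SE 0.52, edgeR adjusted p = 0.294). MC 41, MC 6 and MC + Chemo 52 were also the 3 highest on a sum of 8 brown adipocyte markers (52186, 11379 and 4684, at most 1497 elsewhere), a list added after these values were seen. Of the 35 murine ABC genes 11 were at their highest of the 24 libraries in MC 41 (31.4%), against 17.8% of all murine genes. The 5 listed genes of peroxisomes and lysosomes were all higher than CTRL in MC, with a median of 1.47, where 50% of all murine genes were, and 2 had an unadjusted p below 0.05 (8.73% of all genes in that direction). Of 9 peroxisome partner genes all 9 were higher too (median 0.88), with 7 at an unadjusted p below 0.05 and 0 past the adjusted test by edgeR or DESeq2. Without MC 41 the MC difference of Abcd3 was 0.47 and that of Abcb8 was 0.73.

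**Figure D5:**
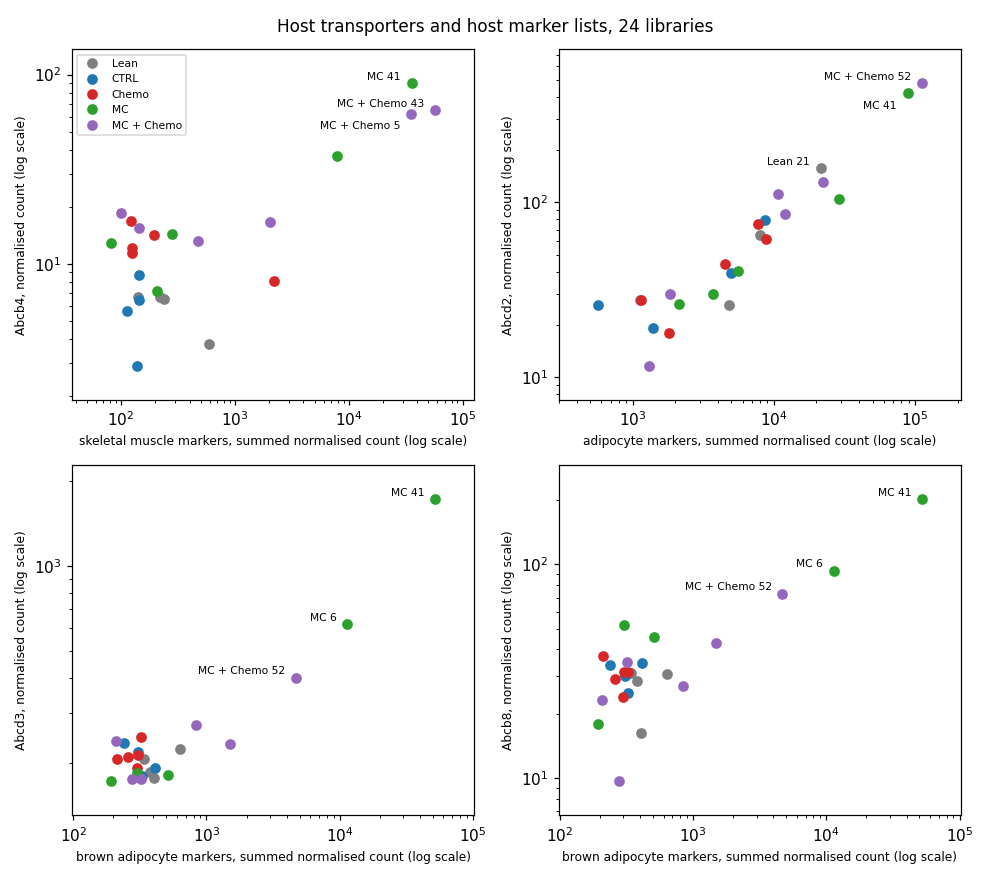
Normalised counts of Abcb4, Abcd2, Abcd3 and Abcb8 (vertical, log scale) against the summed normalised counts of skeletal muscle, adipocyte or brown adipocyte markers (horizontal, log scale) in the 24 tumors, coloured by group. MC 41 is the highest point for Abcb4, Abcd3 and Abcb8 and the next to highest, after MC + Chemo 52, for Abcd2, and it lies far to the right on every marker axis.

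Abcd4 and Abcb6 had low counts. Abcd4 had 10.8, 9.30, 3.03, 12.2 and 7.60 in Chemo and ran from 9.66 to 35.2 (median 16.5) in MC + Chemo (log2 fold change 1.20, SE 0.41, edgeR adjusted p = 0.292), and averaged over chemotherapy the MC difference was called by DESeq2 only (log2 fold change 0.98, SE 0.30, edgeR adjusted p = 0.101, adjusted p = 0.0311 with DESeq2). Without the 5 adipocyte-rich libraries that value was 0.73 (edgeR adjusted p = 0.655). Those 5 include the tumors highest in Abcd4, MC 41 (44.4) and MC + Chemo 52 (35.2), and the part of fat tissue was not tested. Abcb6, a mitochondrial porphyrin transporter, had 1.20, 1.16, 5.04, 5.69 and 1.90 in Chemo, and 5.14 to 10.7 (median 8.01) in MC + Chemo (log2 fold change 1.35, SE 0.53, edgeR adjusted p = 0.366). Abcg3, a gene of the ABCG subfamily found in rodents, had 72, 34.8, 119 and 37.7 in CTRL and 38.4, 31.4, 53.5, 44.7 and 30.4 in Chemo (log2 fold change -0.71, SE 0.34, edgeR adjusted p = 1), and without CTRL 44 the log2 fold change was -0.27. Abcc9, a potassium channel subunit of vessel walls, had 25.9, 107, 103 and 176 in CTRL with CTRL 17 lowest, and 251, 229, 128, 145 and 133 in MC (log2 fold change 0.78, SE 0.37, edgeR adjusted p = 0.425). Abce1 of the host had 613, 363, 696 and 399 in CTRL, with CTRL 17 and CTRL 44 high as in the tumor cells, and 470.5, 378, 371, 326 and 444 in Chemo (log2 fold change -0.38, SE 0.21, edgeR adjusted p = 1).

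Lists of host genes beside the transporters gave 0 edgeR calls in Chemo, MC and MC + Chemo. Of 18 glutathione conjugation genes, 14 were higher than CTRL in MC (median 0.37) and 15 in MC + Chemo (median 0.54), with 4 and 6, all higher, at an unadjusted p below 0.05. Of all murine genes, 50% and 51.1% were higher, and 8.73% and 5.1% were higher at an unadjusted p below 0.05. For the 18 genes of cholesterol efflux and the LXR receptors the medians were -0.07, 0.17 and 0.02 in Chemo, MC and MC + Chemo, and for the 10 regulators of drug efflux genes they were -0.08, 0.05 and 0.02. DESeq2 called 1 gene of each of these 3 lists in MC, Gsta4, Apoc1 and Ppara, all higher. Their log2 fold changes were 5.71, 4.22 and 6.56 (edgeR adjusted p = 0.242, 0.262 and 0.242), and DESeq2 called 1.68% of all murine genes in MC. The summed brown adipocyte markers were 52186 in MC 41, 11379 in MC 6 and at most 512 in the other 3 MC tumors, and their part in these differences was not tested.

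Tumor and host were set side by side for the 26 ABC genes found in both tables under 1 symbol. Of these, 6 (23.1%) were at their highest in the same library in both genomes, against 21.7% of all 11278 such gene pairs. The 6 were ABCA5, ABCB4, ABCB9, ABCC3, ABCD3 and ABCG2, and ABCB4, ABCB9 and ABCD3 were highest in MC 41, the library with the lowest human share. Human ABCB4, singled out after its values were seen and with 118 counts in all against 503 for murine Abcb4, was 38.8 in MC 41, 12.7 in MC + Chemo 43 and 10.6 in MC + Chemo 5, the same 3 tumors that led for Abcb4, and at most 6.26 elsewhere. Human ABCD3 was 927 in MC 41 and at most 541 in the others. How reads that match both genomes were assigned was not given in the sources used here, and its part in these values was not tested.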

How the data were processed

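Tumor RNA was sequenced from the 3′ end (Lexogen QuantSeq, 50 bp forward reads). The authors deposited raw counts per gene, in a human and a murine table, which were tested here, and normalised signal values, which are those counts divided by a DESeq2 size factor per library and are the normalised counts printed. The submitters' notes name GRCm38 and DESeq2 1.22.2. The human build and the handling of reads matching both genomes were not given in the sources used here. Every per-sample column matched a sample (0 left over).

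Groups came from the labels. MC + Chemo 5 has conflicting labels and was taken as MC + Chemo. Counts were filtered by expression and tested in each genome with edgeR 4.0.16 (TMM, quasi-likelihood F test, R 4.3.3), with Benjamini-Hochberg adjustment over all genes tested. CTRL, Chemo, MC and MC + Chemo shared 1 fit of 20 libraries, and Lean was tested against CTRL in a fit of all 24. DESeq2 1.42.0, other filters and normalisations, and leaving out libraries were alternatives. The scripts were tested on simulated data. Single genes also had a two-sided exact permutation test over tumors. Its p-values were not adjusted for the number of genes or for how the genes were chosen. Where the groups do not overlap, the permutation p is low for that reason, and mostly at or near the lowest that the group sizes allow. ABCC5 in MC + Chemo against CTRL was an exception, with a permutation p above that of Abcb4 at the same group sizes.

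The members and gene lists were chosen with earlier results of these data known. Genes were named from a list and, per comparison, up to 3 members with the lowest unadjusted p below 0.05 where fewer than 3 were called. ABCA12, ABCA4, human ABCB4, ABCB9, ABCF1, ABCF3 and murine Abcb9 and Abce1 lie outside that rule and were named after their values were seen. Depth limits the genes under about 30 counts most. P-values set group differences against the spread between tumors. Some members are not reported here.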

Additional observations from a re-analysis of the deposited data

Results flagged for a closer look

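A tumor was singled out where its gap to the nearest tumor of its group, divided by the range of the group, passed Dixon's critical value at the 95% level. Of 210 groups of 4 to 6 tumors tested for the named genes, 20 held such a tumor. If values within a group were normally distributed, chance alone would single out a tumor in about 1 in 20 groups. Normalised counts need not follow that distribution, and the groups of different genes hold the same tumors. The share that chance gives in these data was not tested. Values are normalised counts.

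MC 41 gave 7 of the 20. Among the human genes it had 56.5 for ABCC9 (next MC tumor 22.7) and 927 for ABCD3 (475). Among the murine genes it had 885 for Abca1 (611), 293 for Abca2 (133), 30.8 for Abcc10 (12.7), 421 for Abcd2 (105) and 1728 for Abcd3 (621). Its muscle and adipocyte marker sums, 35615 and 88609, stand beside these values, and their part in them was not tested.

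In the tumor cells the others were ABCA5 at 261 in MC 6 (next MC tumor 145), ABCC5 at 331 in MC 48 (257) and, in Chemo, ABCB8 at 137 in Chemo 30 (109), ABCE1 at 901 in Chemo 19 (756) and ABCG2 at 79.1 in Chemo 33 (37.6). ABCC9 was lowest in Lean 54, at 12.3 (next Lean tumor 23.1).

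In the host, Abcd2 was 479.9 in MC + Chemo 52 (next MC + Chemo tumor 131) and Abcg1 was 536 in CTRL 44 (next CTRL tumor 202). The low values were Abca9 at 68.3 in MC 6 (149.8), Abcb4 at 3.75 and Abcb8 at 16.3 in Lean 54 (6.55 and 28.5), Abcc5 at 168 in Chemo 67 (241) and Abcg1 at 133 in Chemo 30 (218).

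For 3 of the 26 tested human genes every Chemo tumor lay on one side of the CTRL mean and every MC + Chemo tumor on the opposite side of the MC mean. The share of all human genes that did so was not counted. For ABCA4 the CTRL mean, 26.7, lies between CTRL 17 and CTRL 44 (0.911 and 0.863) and CTRL 31 and CTRL 70 (55.2 and 49.8). The interaction was -1.01 on the log2 scale for ABCA4 (edgeR adjusted p = 0.657), -0.86 for ABCA5 (edgeR adjusted p = 0.511) and 0.65 for ABCD4 (edgeR adjusted p = 0.511), none of which was called. ABCA2, whose tumors did not all lie in this way, had an interaction of -0.91 (edgeR adjusted p = 0.511).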

How the results depend on the processing

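The count of ABC genes called was recomputed in 390 settings, DESeq2 among them, and 380 gave the main edgeR value, which was 0 throughout. In the tumor cells DESeq2 called 1 in MC + Chemo against CTRL (ABCE1). Leaving out 1 tumor at a time gave 0 to 3 in Chemo against CTRL, 0 to 2 in MC + Chemo against CTRL and 0 to 2 for chemotherapy averaged over diets. The highest counts came without CTRL 31 (ABCA7, ABCE1 and ABCB8 in Chemo, ABCA7 and ABCE1 in MC + Chemo, ABCA7 and ABCB8 averaged), where all human genes gave 1466, 1501 and 652 calls. ABCE1 was also called in MC + Chemo without CTRL 70 (1 gene, of 1130 calls over all human genes). In the host DESeq2 called 1 in MC, 1 in MC + Chemo (both Abcb4) and 2 for MC averaged over chemotherapy (Abcb4 and Abcd4). For MC averaged over chemotherapy a single fit of all 24 libraries called 1 (Abcb4, of 266 calls over all murine genes), and leaving out 1 tumor gave 0 to 1, with Abcb4 called without MC 42 (of 270). The cause was not tested.

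Of 1092 recomputed log2 fold changes 1089 kept their direction. Abcb1a in Chemo was -0.10, and ran from -0.19 to 0.11 with 1 tumor left out, the highest being without CTRL 44. Without the libraries above 20000 on the adipocyte sum, a setting chosen after seeing the data as was the muscle one, Abcd3 went from 1.47 to -0.21 in MC and from -1.22 to 0.27 in MC + Chemo against MC. No paired analysis was possible because each mouse number occurs in 1 group only.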
